A study of Mus musculus with 3 samples.

Results

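Large KCs were Kupffer cells in which more than 4000 genes were detected, the cells that an upper limit of 4000 genes per cell removes from an analysis. A cell counted as a large KC when it had more than 4000 genes, at most 25% of its UMIs (unique molecular identifiers, 1 per captured transcript) from the mitochondrial genome, at least 10 UMIs of Clec4f and Vsig4 together and fewer than 5 UMIs of the cell cycle genes Mki67, Top2a, Cdk1, Ube2c and Birc5 together. This left 602 large KCs among 52335 cells, 565 of them in 1 table of cells and 37 in the other. "Large" refers here to the RNA captured per cell, since the diameter of the cells was not measured.

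The study asked how resident and recruited liver macrophages respond to a fatty liver diet and what the secreted protein Chi3l1 (gene Chil1) does in them. Nonparenchymal cells, the liver cells other than hepatocytes, were captured on BD Rhapsody microwells, and 2 tables of UMIs per gene and cell were analysed. The first, called the HFHC pool, holds 21601 cells of WT and Chi3l1-/- C57BL/6J mice that spent 16 weeks on a diet rich in fat and cholesterol (HFHC), loaded together, and the library of sample tags that would give the genotype of each cell was not analysed here. The second, called the WT library, holds 30734 cells. Its name says WT and its header names a library APAP0h, the remaining transcriptome sample is titled MCD, and the study describes WT mice on a normal chow diet (NCD) for 16 weeks, so its diet is given here as unsettled. The Chi3l1 deletion was made in the whole animal, and the number of mice behind each library was not given in the sources used here. With 1 library per condition no test between conditions was possible, and every interval below is a 95% exact interval that covers counting error only. Diet, genotype, capture and library cannot be told apart between the tables.

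Kupffer cells are the resident macrophages of the liver. They sit in the sinusoids against the endothelium, take up particles, bacteria, old red cells and lipoproteins from the blood, recycle iron from heme and present antigen on MHC class II. In fatty liver, part of the resident cells is lost and replaced by monocyte-derived macrophages (MoMFs), and macrophages that handle lipid take on a program known as lipid-associated (LAM), with Trem2, Gpnmb, Cd9 and lysosomal genes. Clec4f, a C-type lectin, and Vsig4, a complement receptor, mark Kupffer cells in mice.

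Most Kupffer cells that met the marker minimum in the HFHC pool were above the limit of 4000 genes. The 565 large KCs made up 60.8% (57.5 to 63.9) of the 930 KCs of the pool, and the other 365, called other KCs below, had 200 to 4000 genes and met the same remaining conditions. In the WT library the 37 large KCs were 1.25% (0.881 to 1.72) of 2963 KCs. Large KCs were also the bulk of the cells with so many genes: of 814 cells of the pool above 4000 genes, 69.4% were large KCs, 196 had too few UMIs of Clec4f and Vsig4, 51 reached the limit on cell cycle genes and 2 exceeded the mitochondrial limit. They held 18.6% of all UMIs of the pool and 78.7% of the UMIs of its KCs.

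**Figure D1:**
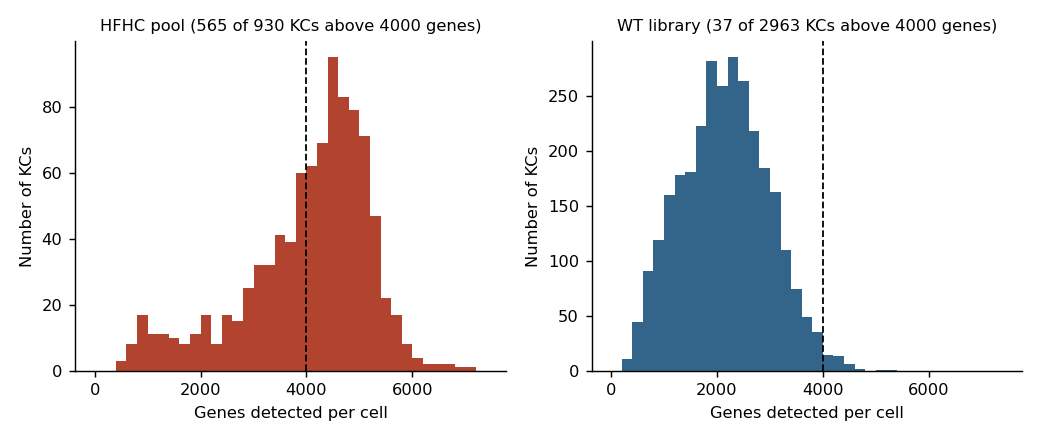
Number of KCs (vertical axis) by genes detected per cell (horizontal axis) in the HFHC pool and in the WT library, with the limit of 4000 genes as a dashed line. In the pool 565 of 930 KCs lie to the right of the line, and in the WT library 37 of 2963.

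Large KCs of the pool had 13872 UMIs in the lowest cell, a median of 22969 and 49412 in the highest, against 939, 10697 and 19993 in other KCs. Genes per cell ran from 4003 over a median of 4727 to 7072, and the median of other KCs was 3143. Large KCs of the WT library reached a median of 16435 UMIs, and other KCs of that library 5138. The UMI ranges of large and other KCs overlapped in both tables. The mitochondrial share of UMIs had medians of 6.602% in large and 7.28% in other KCs of the pool, and its upper end was higher in other KCs, where 1 in 10 cells lay above 13.9% and the highest was at 24.9%, against 8.55% and 16.6%.

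The limit of 4000 genes cut through a continuous distribution. The 36 large KCs within 100 genes above the limit had a median of 17307 UMIs and of 133.5 UMIs of Clec4f and Vsig4, and the 40 other KCs within 100 genes below it had 16097 and 122. The limit on the 2 markers was far from most cells: 4 large KCs had 10 to 19 UMIs of them and 561 had 20 or more, while 1 cell with as many genes had 5 to 9 and 195 had 0 to 4. That 1 cell held 393 UMIs of the endothelial marker list.

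Cells of every class had more UMIs in the pool than in the WT library, and the KCs by the widest margin among classes with at least 50 cells in both. The median UMIs per cell of the pool were 1.65 times those of the WT library in T cells, 1.80 times in monocytes, 1.95 times in B cells, 2.75 times in endothelial cells and 3.60 times in KCs, where classes other than KCs needed at least 10 UMIs of their marker list. To set the count of large KCs at a common depth, each of the 930 KCs of the pool was thinned at random by these ratios. After thinning by the ratio of T cells 170 cells stayed above 4000 genes, by that of monocytes 113, by that of B cells 68 and by that of endothelial cells 9. At the first 3 of these ratios the share was above the 1.25% of the WT library, at 18.3% (15.8 to 20.9), 12.2% (10.1 to 14.4) and 7.31% (5.72 to 9.18), and at the ratio of endothelial cells it was 0.968% (0.443 to 1.83), within the interval of the WT library. Thinning can only lower the number of large KCs, so the fall itself is no result. How much of the gap in depth came from the cells and how much from the libraries was not tested.

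Clec4f and Vsig4 chose the cells, so their levels are a description. Clec4f had 0 UMIs in the lowest large KC of the pool, a median of 111 and 299 in the highest, and Vsig4 had 0, 63 and 218. As counts per 1000000 UMIs (CPM, the UMIs of a gene summed over the cells of a group and divided by all their UMIs) Clec4f stood at 4799 (4762 to 4836) in large KCs and 4850 (4779 to 4923) in other KCs, and Vsig4 at 2692 (2664 to 2720) and 2491 (2440 to 2543). The share of transcripts spent on the 2 markers was thus nearly equal, with medians per cell of 7686 and 7630 CPM.

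The markers that the rule did not name kept the same level or stood slightly higher. Timd4, the phosphatidylserine receptor TIM4 of long-lived resident macrophages, had 0 UMIs in the lowest cell, a median of 22 and a highest of 69, with 29 of 565 large KCs at 0, and its CPM was 956 in large and 794 in other KCs (log2 ratio 0.27). Cd5l, a secreted inhibitor of macrophage death, was found in every large KC, from 1 over 101 to 275 UMIs, at 4608 against 4107 CPM. Adgre1, which encodes the macrophage antigen F4/80, stood at 1309 against 1109 CPM, the complement component C6 at 2091 against 1835 and the iron exporter Slc40a1 at 2867 against 2564. Of the 20 genes of the KC identity list, 18 were higher and 2 lower in large KCs, with a median log2 ratio of 0.14. This list also holds Clec4f and Vsig4, which chose the cells, so its count is not free of the rule. Over all 8960 genes measured 54.6% were higher and the median was 0.02. None of the 20 was 2-fold apart.

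Between large and other KCs of the pool few genes differed by 2-fold. Of 8960 genes that reached 100 UMIs over both groups, 56 (0.625%) were at least 2-fold higher in large KCs and 14 (0.156%) at least 2-fold lower, and 93.1% lay within 0.5 on the log2 scale. With each cell thinned to 4000 UMIs 4 of 4824 genes were higher and 2 lower, but 51 of the 56 and all 14 no longer reached 100 UMIs there, and the 5 still measured had log2 ratios of 0.65 to 0.97. With KCs chosen by at least 5 UMIs of Clec4f and Vsig4 12 genes were higher, and by at least 1000 CPM of them 15 were higher and 352 lower. Every gene of these cells entered the count of genes per cell that chose them, so these ratios describe the cells and support no claim of a difference. Most genes thus kept nearly the same share of the transcripts in both groups.

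**Figure D2:**
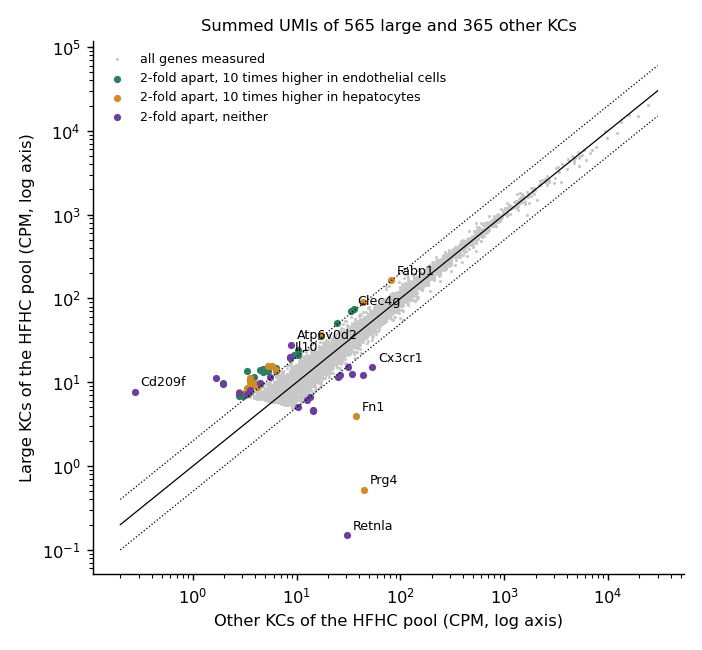
CPM of each gene in the 565 large KCs (vertical axis) against the 365 other KCs (horizontal axis) of the HFHC pool, both on log axes, with equality as a solid line and 2-fold as dotted lines. Coloured genes are at least 2-fold apart, and most of those above the line are 10 times or more higher in endothelial cells (25 genes) or hepatocytes (21 genes) of the pool than in large KCs.

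The genes that stood higher in large KCs were mostly genes of other liver cells at low levels. Of the 56 genes, 25 were at least 10 times higher in the endothelial cells of the pool than in large KCs and 21 at least 10 times higher in its hepatocytes, together 82.1%, against 4.74% of all genes measured. In large KCs 55 of the 56 were under 100 CPM and 44 under 20 CPM. Clec4g, a lectin of sinusoidal endothelium, stood at 71.0 (66.6 to 75.7) CPM in large KCs and 33.6 (27.9 to 40.2) in other KCs, and 469 of the 565 large KCs had 0 UMIs of it while the highest had 47. Kdr, the VEGF receptor of endothelium, stood at 50.6 against 24.3 CPM, and Rasgrp3, a Ras activator, at 13.6 against 3.31. Fabp1, the fatty acid binding protein of hepatocytes, stood at 165 (159 to 172) against 81.9 (72.9 to 91.8) CPM, and 1 large KC held 301 UMIs of it. The 5 large KCs with most UMIs of a gene held a median of 29.5% of its UMIs over the 56 genes. In other KCs, where these genes had few UMIs, the top 5 cells held 50% or more for 43 of the 56, with 78.7% for Clec4g and 71.6% for Kdr, so the levels of other KCs given here rest on few cells. The size of the endothelial excess depended on the cells. The median log2 ratio of the endothelial list was 0.68 over 12 genes, and 0.27 with at least 5 UMIs of Clec4f and Vsig4. It was 0.42 as the mean of CPM per cell and 1.71 for large KCs above 5000 genes. With cells thinned to 4000 UMIs it was 0.40, over the 7 genes that still reached 100 UMIs. Without the cells with UMIs of 7 other lineages (given below), of which endothelium is 1, it was 0.13 over 4 genes. The endothelial list helped choose the cells removed there, so the fall to 0.13 is no result. The hepatocyte direction changed with the marker minimum: of the 15 genes of the hepatocyte list 66.7% were higher in large KCs, 33.3% with at least 5 UMIs of Clec4f and Vsig4 and 0% with at least 1000 CPM of them, with median log2 ratios of 0.12, -0.08 and -1.74. The hepatocyte class of the pool had a median of 951 UMIs, where 1 UMI of these markers exceeds 1000 CPM. Other KCs of that setting can thus include cells that are not KCs, and its values do not describe KCs alone. When the cells with UMIs of 7 other lineages were removed from both groups, 15 genes were 2-fold higher, 10 of them among the 56.

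The 10 genes that did not reach 10 times in either of those cell types differed in how many cells held them. Siglech, Mt2, Gzmb and Zfp768 still stood higher in both cell types than in large KCs, and the others lower in both. Mt2 stood at 82.5 CPM in hepatocytes and 78.4 in endothelial cells, against 9.61 in large KCs. Siglech, a lectin of plasmacytoid dendritic cells, had UMIs in 14 large KCs, and the top 5 cells held 92.7% of them. Atp6v0d2, a subunit of the lysosomal proton pump that is needed for macrophage fusion, stood at 28.2 (25.4 to 31.2) CPM in large KCs and 8.83 (6.04 to 12.5) in other KCs, with 0 UMIs in 515 of 565 large KCs and 39 in the highest. Il10, the anti-inflammatory cytokine, stood at 20.2 (17.9 to 22.8) against 8.55 (5.81 to 12.1) CPM, in 87 large and 13 other KCs, with 71.0% of the UMIs of other KCs in 5 cells. The remaining 7 were Cd209f, Mt2, Tenm4, Zfp768, Clmp, Hba-a2 and Gzmb, of which those outside the rule for named genes are named here after their values were seen. The top 5 large KCs held 88.3% of the UMIs of Cd209f, 89.6% of Gzmb and 95.5% of Hba-a2. Clmp was spread over 96 large KCs with 12.3% of its UMIs in the top 5, and Zfp768 over 88 with 12.04%. Of the genes fixed for multinucleation and fusion, 8 of 16 were measured and 6 of the 8 were higher in large KCs, with a median log2 ratio of 0.05. Atp6v0d2 was the only 1 of these 8 past 2-fold.

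The 14 genes that stood lower in large KCs included Cx3cr1 and the neutrophil genes S100a8 and S100a9. The neutrophil list had 3 of 3 measured genes lower, but the monocyte list had 3 of 5 higher, with a median log2 ratio of 0.17, and the list of monocyte-derived macrophages 3 of 6. Cx3cr1, the fractalkine receptor of monocytes and young macrophages, stood at 15.1 (13.1 to 17.3) CPM in large KCs and 53.8 (46.5 to 61.9) in other KCs, and was seen in 33 of 565 and 30 of 365 cells. The calprotectin genes S100a8 and S100a9 stood at 12.5 against 33.9 and 12.3 against 26.2 CPM. The levels of other KCs rest on few cells here too. The top 5 other KCs held 80.5% of the UMIs of S100a8, 81.1% of S100a9 and 49.2% of Cx3cr1, and a median of 78.1% over the 14 genes. A few cells made the most extreme ratios. Prg4 and Retnla, named after their values were seen, had 161 and 112 UMIs in other KCs, all of them in 4 and 2 cells, and Fn1, fibronectin, had 90.4% of its UMIs of other KCs in 5 cells. Ccr2, the chemokine receptor of recruited monocytes, stood at 21.8 against 35.9 CPM.

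MHC class II genes stood lower in large KCs, together and at high levels. H2-Ab1, a chain of the class II molecule, had 1 UMI in the lowest large KC, a median of 91 and 511 in the highest, and 4480 (4445 to 4516) CPM in large against 6181 (6101 to 6263) in other KCs (log2 ratio -0.46). H2-Aa stood at 3790 against 5307 CPM (-0.49), H2-Eb1 at 2459 against 3558 (-0.53) and Cd74, the invariant chain that guards the peptide groove, at 9530 against 12096 (-0.34). Of the 12 genes measured, 10 were lower and none was 2-fold apart, with a median log2 ratio of -0.25, and the 2 higher ones were H2-DMb2 and the costimulator Cd86 (357 against 271 CPM). Ctss, the protease that trims Cd74, differed less, at 4802 against 5258 CPM. Apoe, the apolipoprotein that carries cholesterol out of the cell, had 24, 328 and 890 UMIs in the lowest, median and highest large KC and stood at 15074 against 19514 CPM (-0.37).

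Of the lists of lipid and lysosome genes the LAM list stood highest, with 17 of 18 genes higher and a median log2 ratio of 0.26. This median was 0.40 with at least 1000 CPM of Clec4f and Vsig4, where shallow cells that are not KCs could count as other KCs. Without cells with UMIs of the hepatocyte list or of 7 other lineages it was 0.112, and the lysosome list had 0.113. The list of lipid uptake and cholesterol efflux had 13 of 19 genes higher and a median of 0.07, but its summed level, to which Apoe belongs, was 27209 CPM in large against 31015 in other KCs. Cholesterol and fatty acid synthesis had 8 of 15 genes higher and a median of 0.03. Lipa, the acid lipase that splits lipoprotein cholesteryl esters, was found in every large KC, from 4 over 39 to 136 UMIs, and stood at 1740 against 1335 CPM (0.38). Ctsd, a lysosomal protease, stood at 1366 against 1073 CPM (0.35), and Cd36, the fatty acid and oxidised lipoprotein receptor, at 792 against 538 (0.56). Gpnmb, a lysosomal glycoprotein, had the highest ratio of the list at 0.95, with 140 (134 to 147) against 72.5 (64.0 to 81.9) CPM, but 448 of 565 large KCs had 0 UMIs and the highest had 184. Trem2, the lipid receptor, was the 1 gene of the list that stood lower, at 135 against 155 CPM. In the lysosome list 31 of 42 genes were higher, with a median of 0.11. Scd1, which desaturates fatty acids, stood at 803 against 611 CPM (0.39).

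**Figure D3:**
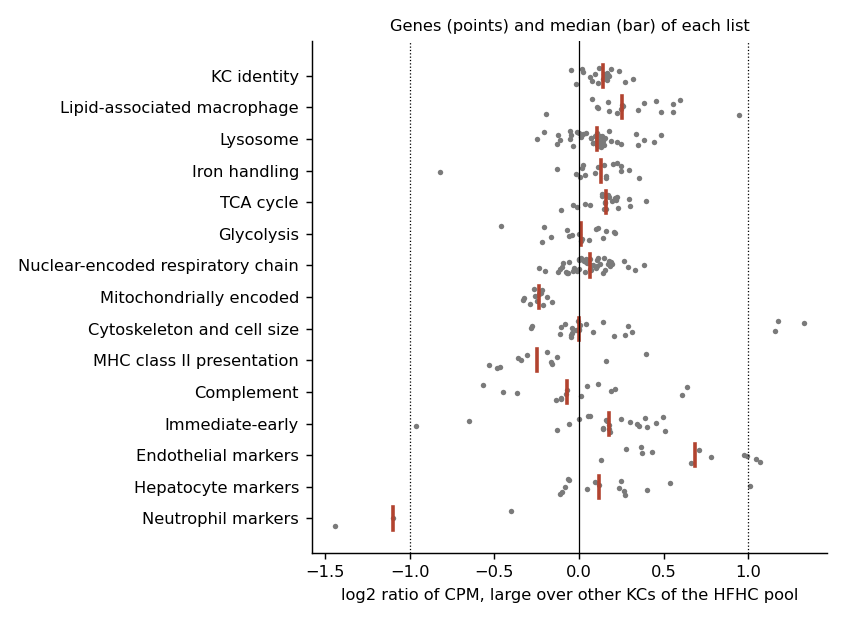
Log2 ratio of CPM, large over other KCs of the HFHC pool (horizontal axis), for each gene (points) of 15 fixed lists, with the median of the list as a red bar and 2-fold as dotted lines. The medians of the lists drawn from macrophage biology lie between -0.25 and 0.26, the endothelial markers lie at a median of 0.68 and the neutrophil markers at -1.10.

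Lists of energy metabolism and stress had medians between -0.23 and 0.22, with no gene 2-fold apart. The TCA cycle list had 18 of 21 genes higher with a median log2 ratio of 0.16. This count turned to 19.05% of genes with a minimum of 1000 CPM of Clec4f and Vsig4 in place of 10 UMIs. In that setting shallow cells with very few UMIs of these markers could count as other KCs, and the hepatocyte list had a median of -1.74. Glycolysis had a median of 0.01, with Gapdh at 1056 against 1054 CPM and the pyruvate kinase gene Pkm at 337 against 354. Nuclear-encoded respiratory chain genes had a median of 0.06, and of -0.20 with at least 1000 CPM of the markers, while all 13 mitochondrially encoded genes stood lower, with a median of -0.23, and all 13 stood higher when both groups were limited to 10% mitochondrial UMIs. In the iron list 15 of 18 genes were higher with a median of 0.13. Hmox1, the heme oxygenase that opens the heme ring, had 1, 21 and 383 UMIs in the lowest, median and highest large KC and stood at 1813 against 1419 CPM. Genes of the cytoskeleton and cell size had a median of 0.00, and the 3 of 24 past 2-fold all belong to the 56 above and to those high in endothelial cells: Cnn3, Fscn1 and Tuba1a, the last named after its value was seen. Of the NRF2 and glutathione list 17 of 20 genes were higher, with a median of 0.19, of the immediate-early list 18 of 23, with 0.18, and of the heat shock list 11 of 15, with 0.17. Of the p53 list 9 of 16 genes were higher (56.2%, beside 54.6% of all genes), with a median of 0.22 that was -0.04 for large KCs above 5000 genes and -0.02 as the mean of CPM per cell, and of the G1 and S phase list 13 of 19, with 0.09. Across 28 lists of macrophage and cell functions 24 had a median above 0, beside the 0.02 of all genes.

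Gene lists followed genes per cell in different ways over the KCs of the pool. In 8 bins of genes per cell, the last 4 of which were the large KCs, the KC identity list stayed within a narrow range near the limit, at 28217 CPM in the bin below the limit and 30606, 31046, 30463 and 27864 in the 4 bins above it. The MHC class II list stood lower with each bin of large KCs, at 30960, 25835, 23628 and 22802 CPM, while the 4 bins of other KCs had no such order, at 36823, 27309, 34968 and 33467. Apoe was ordered in the same way over the large KCs, at 17180, 15376, 14056 and 12239 CPM, after 19038 in the bin below the limit. Large KCs were thus not uniform, and the cells with most genes had the lowest class II and Apoe levels of the 8 bins. The endothelial list stood at 719 CPM below the limit, at 580 and 652 in the first 2 bins above it and at 1294 and 2122 CPM in the last 2. Its excess in large KCs thus belonged to cells above 5000 genes: Clec4g went from 12.4 and 22.3 to 125 and 212 CPM. The hepatocyte list stood at 1116, 1302, 1567 and 2333 CPM over the same bins. In 7 bins of total UMIs it had no such order, at 1589, 1608, 1348, 1177, 1521, 1584 and 1303 CPM from the lowest to the highest bin. Marco, a scavenger receptor, stood at 415, 713, 902 and 955 CPM. Between the bin with most genes and the bin below the limit the endothelial list differed by 1.56 on the log2 scale, and with bins of total UMIs, between the highest bin and the one around the median depth of the cells next to the limit, by 0.97.

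**Figure D4:**
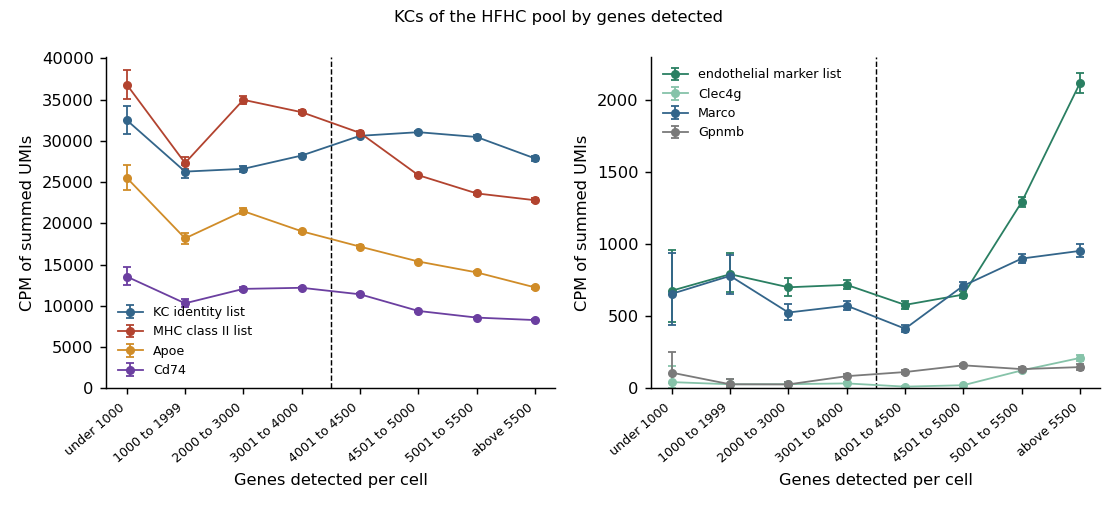
CPM of gene lists and genes (vertical axes, from 0) in KCs of the HFHC pool by genes detected per cell (horizontal axis, 8 bins), with 95% exact Poisson intervals as bars and the limit of 4000 genes as a dashed line. Over the 4 bins of large KCs the MHC class II list lies at 30960 to 22802 CPM, lower with more genes, and the endothelial list at 580 to 2122 CPM, higher with more genes.

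Doublets, a pair of cells caught in 1 well, would also give many genes, and they were looked for in 3 ways. The caller Scrublet, which compares each cell with simulated pairs, marked 9 of 565 large KCs (1.59%, 0.731 to 3.002), 9 of 365 other KCs (2.47%, 1.13 to 4.63) and 2.31% of all 20437 cells of the pool it was given. Such a caller finds pairs of unlike cells and cannot find pairs of KCs. The other ways, genes detected at equal UMIs and UMIs of other lineages, do not separate a pair of KCs from a single KC either. Whether large KCs were pairs of KCs was thus not tested. Run without the other cells above 4000 genes, it marked 10 large KCs (1.77%, 0.852 to 3.23) and 4 other KCs (1.096%, 0.299 to 2.78), so the order of the groups turned with the cells entered and the intervals overlapped in both runs. No cell was removed on its calls. In the WT library it marked 8.26% of cells, 7 of 37 large KCs (18.9%, 7.96 to 35.2) and 407 of 2926 other KCs (13.9%).

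When every cell was thinned to 4000 UMIs, the genes detected were close, with a median of 1815 against 1755 in the 299 other KCs with enough UMIs (66 were left out). Transcripts of other lineages were counted at the same 4000 UMIs. Of large KCs 16.6% (13.7 to 19.97) had at least 5 UMIs of the endothelial list, against 7.69% (4.94 to 11.3) of other KCs. Without Fcgr2b, Stab2 and Pecam1, which macrophages can express, the shares were 8.85% (6.64 to 11.5) and 3.01% (1.39 to 5.64). The hepatocyte list reached 5 UMIs in 37.5% and 40.1%, and the T cell, B cell, plasma cell, NK cell, neutrophil and stellate cell lists in 0.531% to 1.24% of large KCs. For any of the 7 lists of non-parenchymal cells (these 6 and the endothelial list) it was 20.2% (16.9 to 23.7) against 11.7% (8.29 to 15.9), and at 2000 UMIs 9.56% (7.26 to 12.3) against 8.50% (5.77 to 11.99). Sinusoidal endothelium touches Kupffer cells in the tissue, and whether an endothelial transcript came from a pair, from a fragment or from free RNA was not tested.

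Large KCs varied among themselves more in a few genes than in the rest. To compare them at equal depth, all 565 were thinned to 10000 UMIs. Over 7817 genes the variance was a median of 1.15 times the mean, close to counting error, and 136 genes reached 5 times or more. The genes that follow were chosen after seeing this spread, and beside each split the splitting gene itself is no result. The points of every correlation below are the 565 cells of 1 library, which share capture and mice of both genotypes.

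Class II genes varied together. The summed MHC class II list had 23 UMIs in the lowest large KC, a median of 234 and 722 in the highest of 10000, and Spearman's rho of H2-Ab1 was 0.94 with H2-Aa, 0.93 with Cd74 and 0.92 with H2-Eb1. In the 57 large KCs with most class II UMIs against the 60 with fewest, Scd1 stood at 351 against 1062 CPM, Hmox1 at 856 against 1790 and Clec4f at 3833 against 5237. Genes per cell had medians of 4433 and 4795. Scd1 and heme oxygenase thus stood lower in the cells with most class II.

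A small set of large KCs lacked Timd4. It had 0 UMIs in 32 cells and at least 5 in 484 at 10000 UMIs. In the 32 cells against the 484 Clec4f stood at 2053 against 5173 CPM, C6 at 275 against 2300, the hemoglobin scavenger receptor Cd163 at 18.8 against 643 and the KC list without Timd4 at 16928 against 30990. The same cells were high in other genes: Cx3cr1 stood at 231 against 2.48 CPM, Ccr2 at 138 against 14.7, Gpnmb at 734 against 49.0, the elastase Mmp12 at 438 against 36.6 and H2-Ab1 at 8378 against 4211. Median genes per cell were 4623 and 4743.5. Other KC genes were present in these cells: Cd5l had UMIs in 32 of 32 and stood at 3700 against 4732 CPM, Slc40a1 in 32 at 1981 against 3024, and Folr2, a folate receptor, in 22 at 700.0 against 1626. The genes that stood higher were each seen in part of the 32 cells, Cx3cr1 and Gpnmb in 14, Ccr2 in 13 and Mmp12 in 11, with a median of 0 UMIs, while H2-Ab1 was seen in all 32. For Gpnmb 2 cells, with 87 and 69 UMIs, held 66.4% of its UMIs, and it stood at 263 CPM in the other 30. At 4000 UMIs Timd4 was seen in 90.1% (87.3 to 92.4) of large KCs, 84.3% (79.7 to 88.2) of other KCs and 1.05% of endothelial cells of the pool. These endothelial cells were chosen with fewer than 5 UMIs of Clec4f and Vsig4, so their share cannot give the background of free RNA.

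A set of large KCs that overlapped the one without Timd4 held Gpnmb. It was at 0 in 479 large KCs and reached 3 UMIs or more in 40, of which 9 had 0 UMIs of Timd4. In those 40 cells against the 479 Mmp12 stood at 1218 against 35.3 CPM, Itgax, the integrin CD11c, at 273 against 27.3, Trem2 at 473 against 103 and the tetraspanin Cd63 at 523 against 45.3, while Timd4 stood at 468 against 1010 and Clec4f at 2933 against 5049. Mmp12 rested on few cells, since 5 of the 565 large KCs held 47.4% of its UMIs. The LAM list without Gpnmb stood at 28002 against 18750 CPM, but Spp1, osteopontin, was at 0 against 0.63 CPM. In the 31 Gpnmb cells that had Timd4, Mmp12 stood at 1200 CPM, Trem2 at 432, Cd63 at 448 and Clec4f at 3519. At 4000 UMIs Gpnmb was seen in 11.0% (8.52 to 13.8) of large and 9.70% (6.59 to 13.6) of other KCs, in 4.49% of monocytes and 1.05% of endothelial cells of the pool, and in 0 of 37 large and 0.106% of other KCs of the WT library. For the 37 cells the exact interval runs up to 9.49%. The 0 depends on the random draw: at 2000 UMIs Gpnmb was seen in 2.70% of these 37 cells and in 0.228% of other KCs of the WT library.

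Atp1b3, a subunit of the sodium pump, split large KCs into a low and a high range. At 10000 UMIs it had 0 to 4 UMIs in 299 cells, 5 to 9 in 148, 10 to 19 in 20, 20 to 39 in 19 and 40 or more in 79. In the 98 cells with 20 or more, it stood at 5934 CPM, against 384 in the 447 cells under 10. The KC markers did not follow: Clec4f stood at 5059 against 4866 CPM, Timd4 at 1006 against 940, the KC list at 30959 against 30305, and genes per cell at medians of 4684.5 and 4737. Genes that did were Pira2, an Ig-like receptor (719 against 259 CPM), the matrix protein gene Tgfbi (367 against 166), Plac8 (222 against 76.3) and the lysosomal acetyltransferase gene Hgsnat (296 against 170), named after their values were seen. At 4000 UMIs, 8 UMIs or more of Atp1b3 were found in 17.3% (14.3 to 20.7) of large KCs and 21.1% (16.6 to 26.1) of other KCs of the pool, in 3.01% (2.29 to 3.88) of other KCs of the WT library, and in 0.175% of endothelial cells and 2.55% of T cells of the pool. The set was therefore not particular to large KCs.

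**Figure D5:**
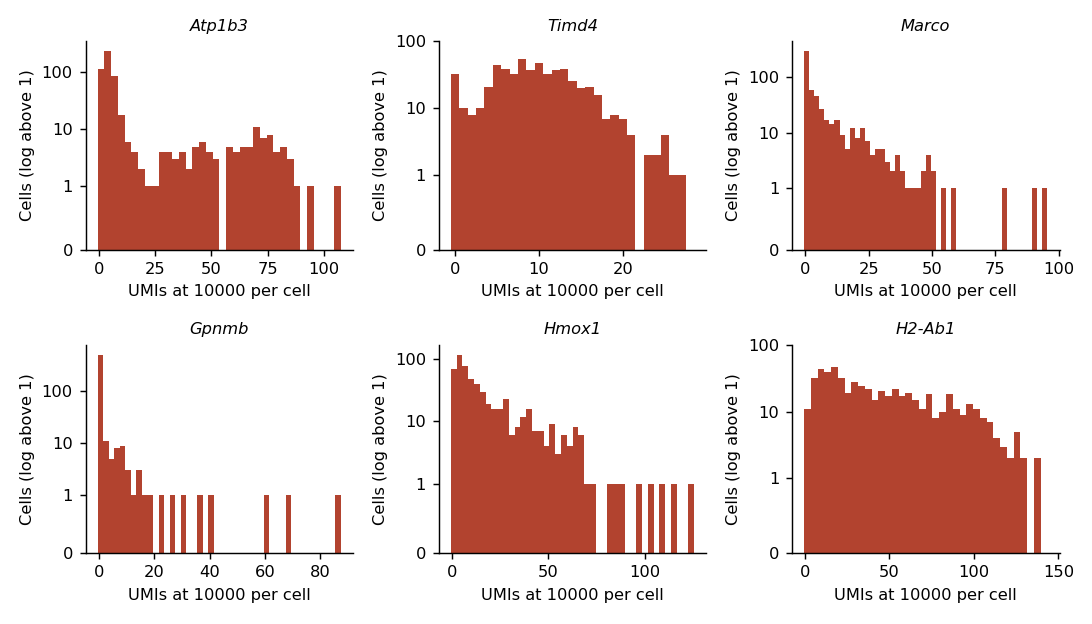
Number of large KCs of the HFHC pool (vertical axes, log above 1) by UMIs of 6 genes after thinning to 10000 UMIs per cell (horizontal axes). Atp1b3 has 299 cells at 0 to 4 UMIs and 79 at 40 or more, Gpnmb is at 0 in 479 cells, and H2-Ab1 spreads over a broad range.

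Heme and immediate-early genes also varied. Hmox1 had 0, 9 and 125 UMIs in the lowest, median and highest cell, and its closest partners were the iron exporter Slc40a1 (rho 0.53), the heme transporter Slc48a1 (0.44) and the ferritin gene Ftl1 (0.39). Fos had its closest partners in Fosb (0.79), the phosphatase Dusp1 (0.77) and the mRNA decay factor Zfp36 (0.76). Clec4g correlated with Kdr (0.73) and the water channel Aqp1 (0.72), and 502 of 565 large KCs had 0 UMIs of Aqp1. Cxcl13, a chemokine for B cells, had the widest spread, with 54.4% of its UMIs in 5 cells and 437 cells at 0.

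The KCs of the pool were then set beside other KCs of the WT library. Of 10099 genes, 406 (4.02%) were at least 2-fold higher in large KCs of the pool than in other KCs of the WT library and 462 (4.57%) lower, beside 312 (3.33%) and 456 (4.86%) of 9382 for other KCs of the pool. Both comparisons share the KCs of the WT library. Gpnmb stood at 140 CPM in large and 72.5 in other KCs of the pool against 0.85 in other KCs of the WT library, Cd63 at 96.0 and 68.4 against 3.96, Ctsd at 1366 and 1073 against 182, Scd1 at 803 and 611 against 177 and Cd74 at 9530 and 12096 against 5478. Maf, a macrophage transcription factor, stood at 842 and 918 against 2058. The 3 chains of complement C1q, which are made together, differed in opposite directions between the tables: C1qa stood at 2427 CPM in large KCs of the pool and 1044 in other KCs of the WT library, but C1qb at 4878 and 7517 and C1qc at 5162 and 7286. In the LAM list the median log2 ratio over other KCs of the WT library was 1.45 for large and 1.17 for other KCs of the pool, in the immediate-early list 1.23 and 1.15, and in the KC identity list 0.15 and 0.02.

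The 37 large KCs of the WT library held more transcripts of other cell types than those of the pool. At 4000 UMIs 48.6% (31.9 to 65.6) of them had at least 5 UMIs of any of 7 other lineages, against 22.5% (20.6 to 24.4) of other KCs of that library, and 19 cells were left without them. Against other KCs of their own library 422 of 9099 genes (4.64%) were at least 2-fold higher and 182 (2%) lower, and 58.0% were higher by any amount. All 22 measured genes of the G1 and S phase list were higher, 10 of them at least 2-fold, with a median log2 ratio of 0.97. The list stood at 1591 against 956 CPM. Clec4g stood at 371 against 65.6 CPM, and Dcn, decorin of stellate cells and fibroblasts, at 403 against 17.0. Both rested on few cells, with UMIs of Clec4g in 13 and of Dcn in 9 of the 37, and 75.7% and 98% of them in 5 cells. Of the KC markers Clec4f stood at 4626 against 5979 CPM and Timd4 at 732 against 761. The KC identity list had 6 of 20 genes higher, with a median log2 ratio of -0.10, and the LAM list 7 of 15, with -0.03. Both lists had stood higher in large KCs of the pool. Marco stood at 1346 (1256 to 1440) against 514 (503 to 525) CPM and H2-Ab1 at 5224 (5046 to 5407) against 5042 (5007 to 5076). The whole MHC class II list stood at 20189 CPM in large and 21461 in other KCs of the WT library, with 7 of 13 genes lower and a median log2 ratio of -0.04. Whether this ratio differs from that of the pool was not tested.

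Chil1 was nearly absent from the RNA captured from KCs. Large KCs of the pool held 4 UMIs of it in 2 of 565 cells, 0.298 (0.0812 to 0.763) CPM, other KCs of the pool 2.76 (1.32 to 5.07) CPM and other KCs of the WT library 3.60 (2.74 to 4.64) CPM, while the 37 large KCs of the WT library held 0, with an exact interval up to 5.95 CPM. Since cells of both genotypes are mixed in the pool, these values do not check the deletion. They do not measure protein either. The study reports Chi3l1 protein in KCs by staining and western blot, and it measured the mRNA by qRT-PCR in sorted KCs. It also states that public single-cell data place the transcript mainly in neutrophils.

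Cell indices, the bead labels that name cells within a table, came up in both tables for 756 of the 21601 cells of the pool (3.50%), for 19 of its 565 large KCs and for none of the large KCs of both tables together.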

How the data were processed

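Liver nonparenchymal cells were captured and sequenced by BD Rhapsody whole transcriptome analysis. The deposited tables hold counts of UMIs per gene and cell, corrected for UMI errors (RSEC) by the authors with the BD Rhapsody WTA Analysis Pipeline 1.10.1 on GRCm38 and GENCODE vM19, per the file headers. The submitters' processing notes name Seurat, and the study's methods drop cells outside 200 to 4000 genes or above 25% mitochondrial UMIs; large KCs are cells that this upper limit removes.

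Cells were assigned by the rule given in the report, and all cells of the tables entered the totals (21601 and 30734 cells). UMIs were summed per group and scaled to CPM with 1 UMI added per gene for ratios. Genes needed at least 100 UMIs in both groups together, and a log2 ratio of at least 1 in size counted as 2-fold. Poisson and binomial intervals were exact. Cells were thinned without replacement to 4000, 2000 or 10000 UMIs (seed 42). Scrublet was run through scanpy 1.11.5 on each table for cells with at least 200 genes and at most 25% mitochondrial UMIs. Scripts ran on Python 3.11.15, numpy 2.4.6, scipy 1.17.1 and pandas 2.3.3, and the steps across genes were tested on simulated data. No test was run, because each condition had 1 library and cells are not replicates.

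The members, gene lists and splits were chosen with earlier results of these data known. Named genes were those of the rule, the 15 highest and 15 lowest ratios among genes with at least 10 UMIs in each group, the 5 most abundant and the 2 highest and 2 lowest genes of each list, Chil1, and the markers the study names for KCs, monocytes and MoMFs. The sample-tag library was not used, since no table of it was analysed here.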

Additional observations from a re-analysis of the deposited data

How the results depend on the processing

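No paired analysis was possible because each condition had 1 library, and no library could be left out. Within the pool, the lower MHC class II list, with 8.33% to 25% of genes higher, and the higher KC identity list, at 75% to 100%, and LAM list, at 77.8% to 94.4%, kept their direction under all 15 alternatives, and the number of lists with a median above 0 stayed between 19 and 25. The KC identity list holds Clec4f and Vsig4, which chose the cells. None of these alternatives used the WT library. There 6 of 20 KC identity genes, 7 of 15 LAM genes and 6 of 13 class II genes were higher in large KCs. The share of TCA cycle genes higher turned from 85.7% to 19.05% with a minimum of 1000 CPM of Clec4f and Vsig4, and that of mitochondrially encoded genes from 0% to 100% with a mitochondrial limit of 10%. The minimum of 1000 CPM came in place of 10 UMIs, so shallow cells with very few UMIs of these markers could count as other KCs. Its values, here and below, thus do not describe KCs alone.

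The counts of genes 2-fold apart rest on low counts. The 56 genes higher became 12 with at least 5 marker UMIs, 15 with at least 1000 CPM of the markers, 131 with more than 5000 genes, 112 with no limit on cycling genes, 15 without cells of 7 other lineages, 4 with each cell thinned to 4000 UMIs (where 51 of the 56 and all 14 lower genes fell under the minimum of 100 UMIs), 239 with at least 20 UMIs per gene and 483 with at least 1. The 14 genes lower became 352 with at least 1000 CPM, 2 when thinned, 154 and 1680 at 20 and 1 UMIs, 35 with the mean of CPM per cell and 8 against other KCs with 3000 to 4000 genes. The other alternatives gave 38 to 74 and 11 to 20 genes. More than 5000 genes left 179 large KCs (177 and 2 by table), and removing cells of other lineages left 19 in the WT library. The difference of the endothelial list between bins was 1.56 on the log2 scale by genes and 0.97 by UMIs. The share of large KCs with other lineages was 9.56% at 2000 UMIs in place of 20.2%, and that of other KCs 8.50% in place of 11.7%.

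Chosen after seeing the data were the removal of cells with hepatocyte UMIs as well (10 genes higher, 2 of them among the 56), the endothelial list without Fcgr2b, Stab2 and Pecam1 (12.4% of large KCs with other lineages) and thinning by the depth ratio of another class (170, 113, 68 or 9 large KCs). The causes of these changes were not tested.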
